A study of Mus musculus with 8 samples.

Results

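The T cell receptor genes were described in RNA-seq libraries of effector regulatory T (eTreg) cells. Members were chosen by name, as the variable (V) segments of the alpha, beta, delta and gamma chains and the constant genes Trac, Trbc1, Trbc2, Trdc and Tcrg-C, with at least 10 counts summed over the 8 libraries. Of 183 genes with such names among 49212 genes, 155 were members: 110 Trav, 26 Trbv, 5 Trdv, 6 gamma V and 8 constant genes. Another 18 names had no count in any library, and 11 members are annotated as pseudogenes. Just inside the limit were Trav9d-2, Trbv7 and Trdv2-1 with 10 counts each, and just outside were Trav9n-2 with 7, Trav15d-2-dv6d-2 with 6 and Trav4-1 with 5.

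The cells came from spleens and B16-OVA tumors of C57BL/6 mice, with 2 libraries in each of 4 groups. B16-OVA is a mouse melanoma line that expresses ovalbumin. Control mice (WT) were Foxp3YFP-Cre, and knockout mice (KO) were Prdm1fl/flFoxP3YFP-Cre, in which a Cre driven by Foxp3, the lineage factor of regulatory T cells, deletes Prdm1, the gene of the transcription factor Blimp1. All mice therefore carried the Cre, all bore tumors of at most 1.5 cm3, and per the study's methods mice given B16-OVA were immunized with NP-OVA in Freund's adjuvant. Per the study's methods, mice of both sexes were used at an age of 5 to 10 weeks unless stated otherwise, and cells were sorted as CD44+ YFP+ CD4+ CD3+. Neither the number of sorted cells behind a library nor any pooling of mice is given in the sources used here, so few input cells and expanded clones cannot be told apart in what follows. Nothing in the labels says that replicates came from separate mice, so p-values measure the spread between these samples only. Spleen and tumor cells were also prepared differently, as splenic cells were enriched on CD4 beads and tumor cells passed over a density gradient, so preparation and tissue cannot be told apart.

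Each developing T cell joins a V segment to joining (and, for beta and delta, diversity) segments, and the joined exon is spliced to a constant exon. An alpha chain pairs with a beta chain on CD4 and CD8 T cells, whereas a gamma chain pairs with a delta chain on gamma delta T cells. Because every daughter of a T cell keeps its rearrangement, a pool of many unrelated cells uses many V segments in stable proportions, and a pool dominated by few clones leans on few. V segment counts show usage, not clonotypes: cells with different junctions can share a segment, and joined sequences were not read here.

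The libraries held between 27834676 and 43903859 counts, of which the members took 0.618% to 0.738% in spleen and 0.0986% to 0.410% in tumor. Co-receptor genes went against the sort in the tumor libraries labelled KO. Cd8a, a co-receptor of cytotoxic T cells that the sort should lack, was at 217 and 1214 counts per 1000000 (CPM) there, against 71.8 and 9.68 CPM in the WT tumor libraries and 2.33 to 5.95 CPM in spleen. Cd4 was at 148 and 66.2 CPM in the KO tumor libraries, 807 and 1086 CPM in WT tumor and 384 to 1009 CPM in spleen. Foxp3 was at 10.2 and 2.99 CPM in the KO tumor libraries and 25.5 to 69.6 CPM in the other 6. The paper also reports lower Foxp3 protein in KO than in WT Treg cells from tumors. Of the other Treg markers listed, Il2ra and Ikzf2 were likewise lowest in the KO tumor libraries. Ctla4 was at 461 and 917 CPM there, above spleen (310.5 to 389 CPM) and below WT tumor (4136 and 5719 CPM). Lyz2, a macrophage gene, was highest in KO tumor replicate 1 (9546 CPM), and all 4 melanoma markers were higher in every tumor library than in any splenic one. Prdm1 itself did not separate the genotypes in spleen (40.6 and 53.4 CPM in KO, 54.0 and 21.0 CPM in WT) and was at 90.7 and 75.1 CPM in KO tumor against 108 and 192 CPM in WT tumor. Those counts sum all exons, including exons outside the deleted part, and so do not check the deletion. The names KO and WT below are those of the labels, and results that rest on the KO tumor libraries are given beside those of WT.

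A few V segments carry the usage results below, and the last 150 bases of each V exon, the end that meets the junction, are shown 5′ to 3′ from the GENCODE M21 transcripts (GRCm38). The Trav locus of C57BL/6 mice holds duplicated blocks whose segments are marked D and N in their names, and the first 3 sequences are one such set. Capitals in that set mark bases that differ from both other copies.
Trav14n-3, chr14:53370426-53370575, plus strand: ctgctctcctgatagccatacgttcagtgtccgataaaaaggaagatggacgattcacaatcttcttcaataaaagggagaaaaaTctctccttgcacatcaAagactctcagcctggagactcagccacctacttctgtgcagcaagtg
Trav14-3, chr14:53763545-53763694, plus strand: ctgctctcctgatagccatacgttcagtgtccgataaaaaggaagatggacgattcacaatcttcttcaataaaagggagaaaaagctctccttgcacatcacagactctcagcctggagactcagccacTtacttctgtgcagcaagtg
Trav14d-3-dv8, chr14:53078896-53079045, plus strand: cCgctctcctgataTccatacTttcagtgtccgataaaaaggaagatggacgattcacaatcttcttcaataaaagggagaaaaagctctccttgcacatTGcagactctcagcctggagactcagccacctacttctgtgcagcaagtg
In the other 2 sequences the capitals mark the codon of the conserved cysteine at which the third complementarity-determining loop starts.
Trbv19, chr6:41178899-41179048, plus strand: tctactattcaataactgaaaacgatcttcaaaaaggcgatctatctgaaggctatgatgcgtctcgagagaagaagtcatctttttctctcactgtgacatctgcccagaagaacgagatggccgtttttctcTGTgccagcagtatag
Trgv2, chr13:19336573-19336722, minus strand: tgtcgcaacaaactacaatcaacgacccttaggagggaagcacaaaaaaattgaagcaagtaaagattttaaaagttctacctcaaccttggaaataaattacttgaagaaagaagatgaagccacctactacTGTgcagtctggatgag

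Over the 309 bases of the exon, Trav14n-3 was 98.1% identical to Trav14-3 and 96.8% identical to Trav14d-3-dv8, with identical runs of up to 152 and 106 bases. A read of 150 bases can therefore lie wholly within a stretch that Trav14n-3 and Trav14-3 share, and since only uniquely placed reads were counted, such a read is lost unless its mate tells the copies apart. Of the 110 Trav members, 38 shared their last 150 bases exactly with another segment, and these took 4.38% to 8.64% of Trav reads in the libraries. None of the 26 Trbv members had such a twin. Counts of near-identical Trav copies are uncertain for this reason, which is why Trbv is given beside Trav throughout.

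The constant genes give the level of each chain. Trac (chromosome 14), the alpha constant gene, was at 1254 and 1250.0 CPM in KO spleen, 1468 and 1473 CPM in WT spleen, 292 and 948 CPM in KO tumor and 1271 and 1661 CPM in WT tumor. The WT tumor libraries thus lay on both sides of the WT splenic ones, while both KO tumor libraries lay below all splenic libraries. Trac was 1.24 lower in KO than in WT tumor on the log2 scale (SE 0.61, adjusted p = 0.608, edgeR), which did not pass the test.

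The beta constant genes behaved differently from Trac in the WT libraries. Trbc1 was at 989.5, 868, 833 and 1327 CPM in KO and WT spleen, at 164 and 484 CPM in KO tumor and at 340.2 and 497 CPM in WT tumor. Trbc2 was at 1853, 1767, 1726 and 2835 CPM in spleen, at 306 and 1036 CPM in KO tumor and at 741 and 952 CPM in WT tumor. For both genes every tumor library lay below every splenic library. Across all genes 11.9% showed this complete separation, and among the members 2 of 8 constant genes (Trbc1 and Trbc2), 10 of 84 Trav and 18 of 23 Trbv segments tested did. The log2 difference between WT tumor and WT spleen was -1.37 (SE 0.49, adjusted p = 0.147) for Trbc1 and -1.43 (SE 0.50, adjusted p = 0.137) for Trbc2, and in KO it was -1.52 (SE 0.54, adjusted p = 0.143) and -1.43 (SE 0.60, adjusted p = 0.187). None of these passed the edgeR threshold. Between KO and WT in tumor the log2 difference was -0.37 (SE 0.57, adjusted p = 0.938, edgeR) for Trbc1 and -0.34 (SE 0.61, adjusted p = 0.948, edgeR) for Trbc2, and without KO tumor replicate 1 it turned to 0.21 and 0.29.

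The same imbalance between the chains was seen in V and in constant reads. Trbc1 and Trbc2 together had 2.27, 2.11, 1.74 and 2.83 times as many reads as Trac in KO and WT spleen, 1.61 and 1.60 times in KO tumor, and 0.851 and 0.873 times in WT tumor. Summed Trbv reads were 3.13, 2.88, 2.39 and 3.54 times the Trav reads in spleen, 2.15 and 2.06 times in KO tumor, and 1.15 and 1.06 times in WT tumor. Every tumor library lay below every splenic library in both ratios, and WT tumor lay below KO tumor. These are read ratios within a library, so they do not depend on how much receptor RNA a library held. Within a chain, proportions were stable: Trbc1 took 31.5% to 34.9% of Trbc reads in all 8 libraries, and there were 0.266 to 0.334 Trav reads per Trac read and 0.333 to 0.457 Trbv reads per Trbc read. Trbc1 and Trbc2 have near-identical coding exons, so their split is uncertain. In bulk samples, fewer cells of a type and less RNA per cell cannot be told apart.

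**Figure D1:**
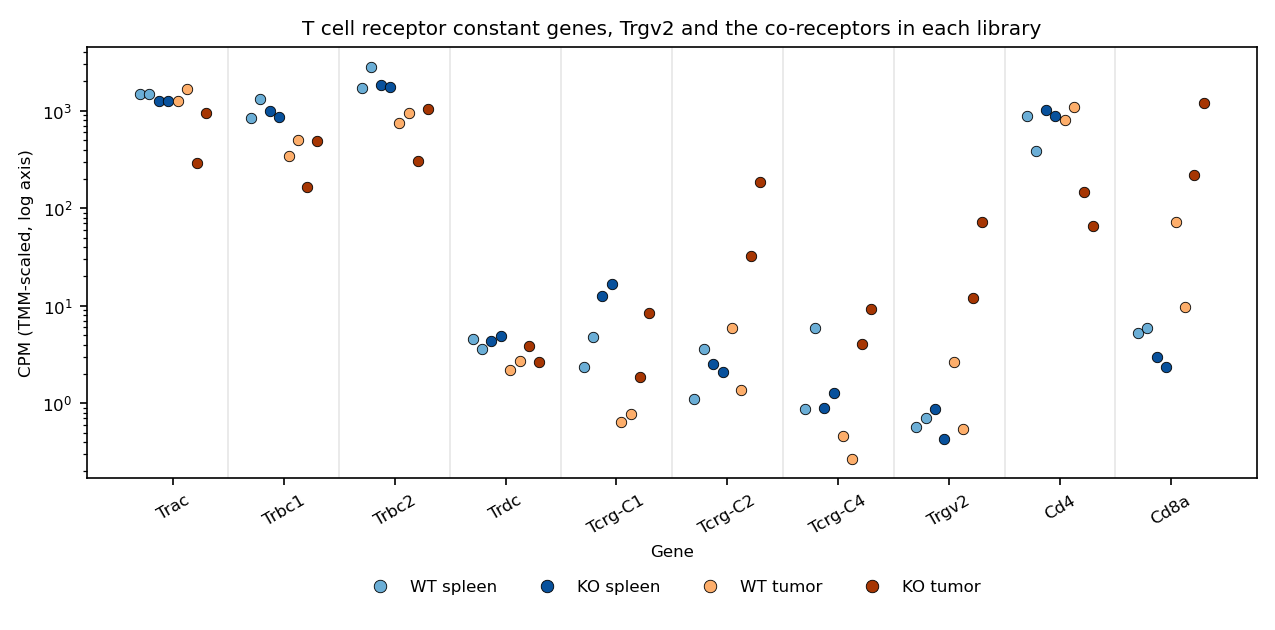
CPM (TMM-scaled, log axis) of 7 receptor constant genes, Trgv2 and the co-receptors Cd4 and Cd8a, with 1 point per library coloured by group. Trbc1 and Trbc2 lie lower in all 4 tumor libraries than in spleen, whereas Tcrg-C2 and Trgv2 reach 184 and 73.1 CPM in the KO tumor library in which Cd8a is 1214 CPM.

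Usage of Trav segments, spread over chr14:52427928-53977678, was stable between splenic libraries. Trav7-4 led in all 4, with 4.97%, 5.60%, 5.19% and 5.42% of Trav reads in KO and WT spleen, followed on average by Trav3-3 (3.75% ± 0.693, SD, n = 4) and Trav12-2 (3.66% ± 0.241, SD, n = 4). In tumor a different segment led in each library. Trav5-1 led in KO tumor replicate 1, Trav14n-3 in KO tumor replicate 2, Trav8n-2 in WT tumor replicate 1 and Trav12-2 in WT tumor replicate 2. Trav7-4 held 4.35% and 2.40% of Trav reads in KO tumor and 3.41% and 4.09% in WT tumor, below all splenic values.

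Trav14n-3 showed the widest departure. It took 3.09%, 2.44%, 3.92% and 3.13% of Trav reads in KO and WT spleen, 5.12% and 27.5% in KO tumor, and 9.09% and 3.84% in WT tumor. In KO tumor replicate 2 these were 2231 of 8124 Trav reads (Wilson 95% interval 26.5% to 28.4%), 8.83 times the splenic median of 3.11%. WT tumor replicate 2 lay within the splenic range, so the rise was not shared by all tumor libraries. Its close copies did not follow it in KO tumor replicate 2: Trav14-3 was at 1.28% and Trav14d-3-dv8 at 0.874%, each below its splenic values of 2.00% to 3.63% and 2.04% to 2.98%. In WT tumor replicate 1, where Trav14n-3 was at 9.09%, Trav14d-3-dv8 was also high, at 5.14%. Trav14-3 had 317 of 11013 Trav reads there, within its splenic range of shares. Wilson intervals cover counting error only, as PCR copies of a molecule were not removed by molecular identifiers.

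Further leading segments were each high in 1 tumor library. Trav8n-2 took 9.41% of Trav reads in WT tumor replicate 1 (Wilson 95% interval 8.88% to 9.97%), and between 0.738% and 2.26% in the other 7 libraries. Segments of like name were also high in WT tumor replicate 1. Trav8-2 took 1.51%, 3.44 times its splenic median, and Trav8d-2 had 259 of 11013 Trav reads, a larger share than in any splenic library. How reads were divided between such copies was not tested. Trav5-1 took 5.65% in KO tumor replicate 1 (Wilson 95% interval 4.86% to 6.56%), from 161 reads, against 0.525% to 1.43% in spleen and 0.554% to 2.11% in the other 3 tumor libraries. Trav12-2 took 4.84% in WT tumor replicate 2 (Wilson 95% interval 4.52% to 5.17%) and 3.35% to 3.87% in spleen, so that library's leading segment was only a little above its splenic level.

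Counting all such departures, a segment was listed as raised in a library when it took at least 1% of its chain's reads and at least 3 times the splenic median share; this rule was set after the values were seen. It listed 6 Trav segments in KO tumor replicate 1, 2 in KO tumor replicate 2, 4 in WT tumor replicate 1 and 1 in WT tumor replicate 2, which together held 14.7%, 29.3%, 14.7% and 2.75% of Trav reads. No Trav or Trbv segment met it in a splenic library, where the median is set by the same libraries. Among Trav segments only Trav6n-5 was listed in 2 libraries, at 1.19% in KO tumor replicate 1 and 1.27% in WT tumor replicate 1. Besides the leading segments, Trav3-4 stood out at 2.75% in WT tumor replicate 2, 7.29 times its splenic median.

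Complete separation of Trav shares between the tissues was counted in both directions. The Trav share was lower in all 4 tumor libraries than in all 4 splenic libraries for 15 of 110 segments and higher for 0. Of these 15, 6 had at most 3 counts in a tumor library, the floor taken here, which leaves 9 above it. Shares within a chain have no counterpart over all genes. By CPM, 10 of 84 Trav segments tested (11.9%) lay lower in all 4 tumor libraries, beside 11.9% of all genes, so Trav did not stand out. Trav9-4, named after its values were seen, took 2.53% to 2.82% in spleen and 0.990% to 1.29% in tumor. A few expanded segments lower the share of all others in a library, so these shares are not independent of each other. In tumor the range of shares was wider than in spleen for 83 of 110 Trav segments and 23 of 26 Trbv segments. Among segments with a mean share of at least 0.5%, the median ratio of highest to lowest share was 1.51 in spleen and 3.55 in tumor for 55 Trav segments, and 1.36 and 2.34 for 21 Trbv segments.

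Evenness was summarised as the effective number of segments, the exponential of Shannon entropy, which equals the number of equally used segments that would give the same diversity. For Trav it was 55.6 and 54.4 in KO spleen, 57.4 and 55.5 in WT spleen, 53.2 and 29.0 in KO tumor, and 43.7 and 50.7 in WT tumor. The tumor libraries lay below the splenic ones, though KO tumor replicate 1, with 2849 reads, was close to the lowest splenic value, and the means were 55.7 ± 1.22 in spleen and 44.1 ± 10.9 in tumor (SD, n = 4). The number of Trav segments expected in 1000 reads from each library was 80.5 to 83.3 in spleen and 74.9 to 81.8 in tumor, which overlap. The difference of 11.6 in effective number compares with an SD between replicates of 8.95, and without the KO tumor libraries it was 8.52. Leaving out KO tumor replicate 2 brought it to 6.51. Without its leading segment, Trav14n-3, that library had an effective number of 46.1. With the segments summed by subgroup (the number before the hyphen), the effective number was 13.4 to 13.7 in spleen, 13.6 and 9.57 in KO tumor and 12.7 and 13.5 in WT tumor, and the difference was 1.19.

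**Figure D2:**
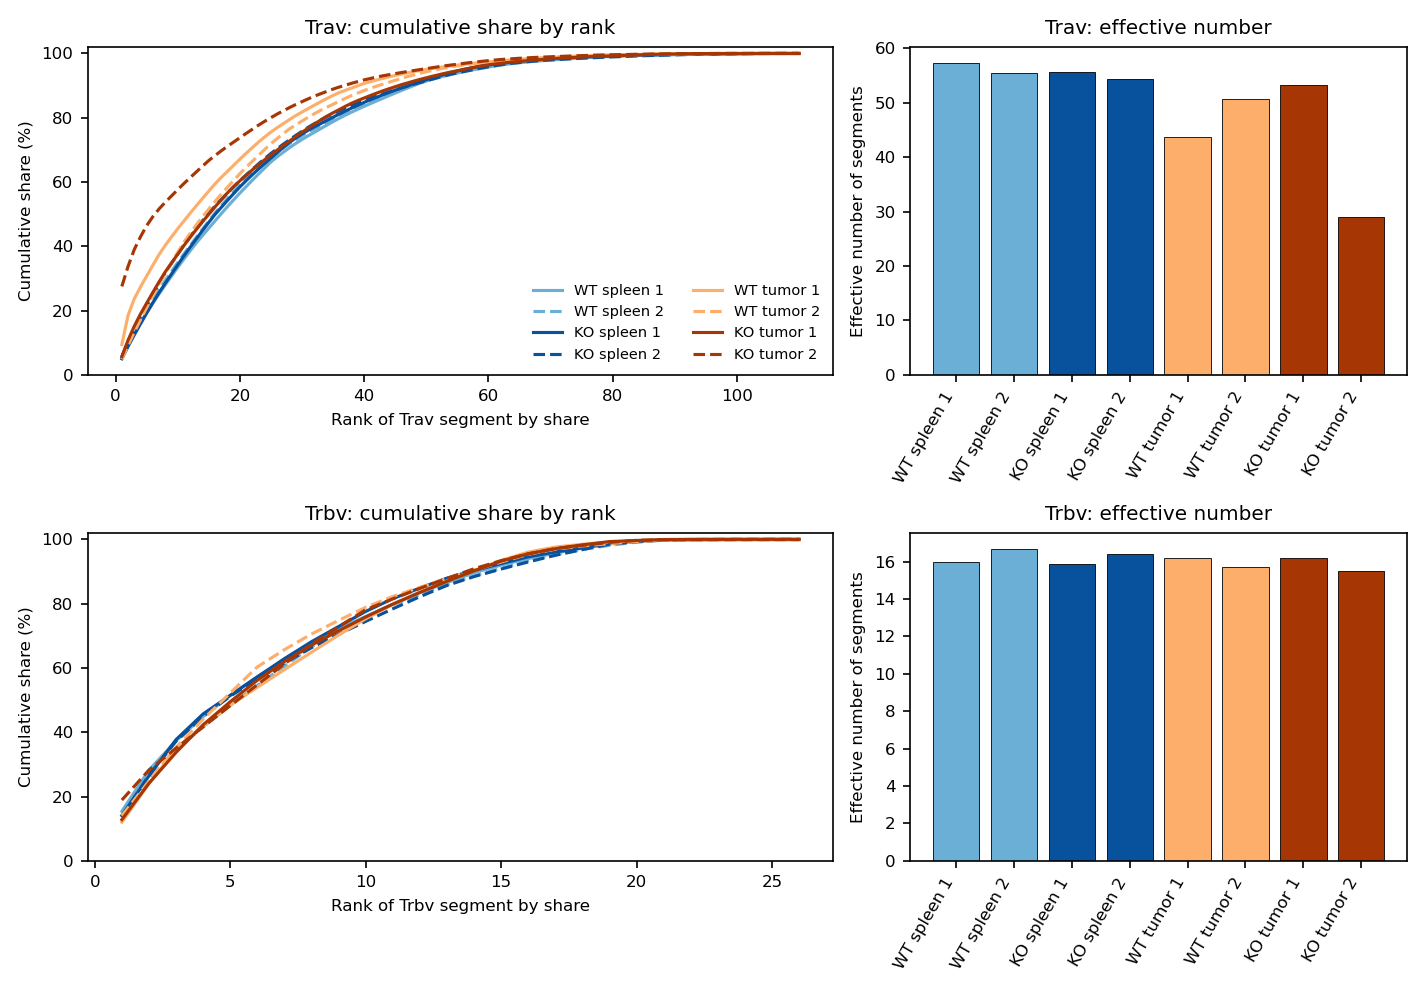
Left, cumulative share (%) of Trav and Trbv reads over segments ranked by share, 1 line per library; right, effective number of segments per library as bars from 0. The Trav curve of KO tumor replicate 2 starts at 27.5% and its effective number is 29.0, while the 8 Trbv bars lie between 15.5 and 16.7.

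For Trbv the effective number did not separate the tissues. It was 15.9 and 16.4 in KO spleen, 16.0 and 16.7 in WT spleen, 16.2 and 15.5 in KO tumor, and 16.2 and 15.7 in WT tumor, with means of 16.2 ± 0.358 in spleen and 15.9 ± 0.352 in tumor (SD, n = 4). The difference of 0.363 was smaller than the SD between replicates of 0.422.

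The Trbv segments, which lie at chr6:40891229-41558452, nevertheless differed in which of them were used. Trbv13-2 led in 6 of 8 libraries, with 13.6% to 15.4% of Trbv reads in spleen, 12.8% and 6.48% in KO tumor, and 10.7% and 14.0% in WT tumor. Trbv3 took 10.6% to 12.8% in spleen, 6.69% and 5.39% in KO tumor and 12.0% and 10.5% in WT tumor. Trbv16 took 9.13% to 12.9% in spleen, 11.3% and 6.82% in KO tumor and 7.11% and 10.8% in WT tumor. The lowest share of each of these 3 leading splenic segments was found in KO tumor replicate 2.

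Trbv19 led that library instead. It took 8.0%, 7.73%, 7.51% and 6.75% of Trbv reads in KO and WT spleen, 7.16% and 18.9% in KO tumor, and 6.59% and 8.74% in WT tumor. The 18.9% came from 3171 reads (Wilson 95% interval 18.3% to 19.5%). The library in which Trbv19 was high was thus the one in which Trav14n-3 was high, but bulk counts do not show whether the same cells carried both. Trbv29 in that library was at 6.16%, 3.72 times its splenic median.

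In WT tumor replicate 1 the lead was shared. Trbv3 had 1529 reads and Trbv1 had 1528, each 12.0% of Trbv reads with a Wilson 95% interval of 11.5% to 12.6%, so neither can be placed above the other. Trbv1 was at 4.81% to 7.10% in spleen and 8.12% in WT tumor replicate 2, and at 4.47% and 3.27% in KO tumor. Trbv14 was raised in more than 1 tumor library, at 3.98% and 5.31% in KO tumor and 5.50% in WT tumor replicate 1 against 1.26% to 1.71% in spleen, but was at 1.03% in WT tumor replicate 2.

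**Figure D3:**
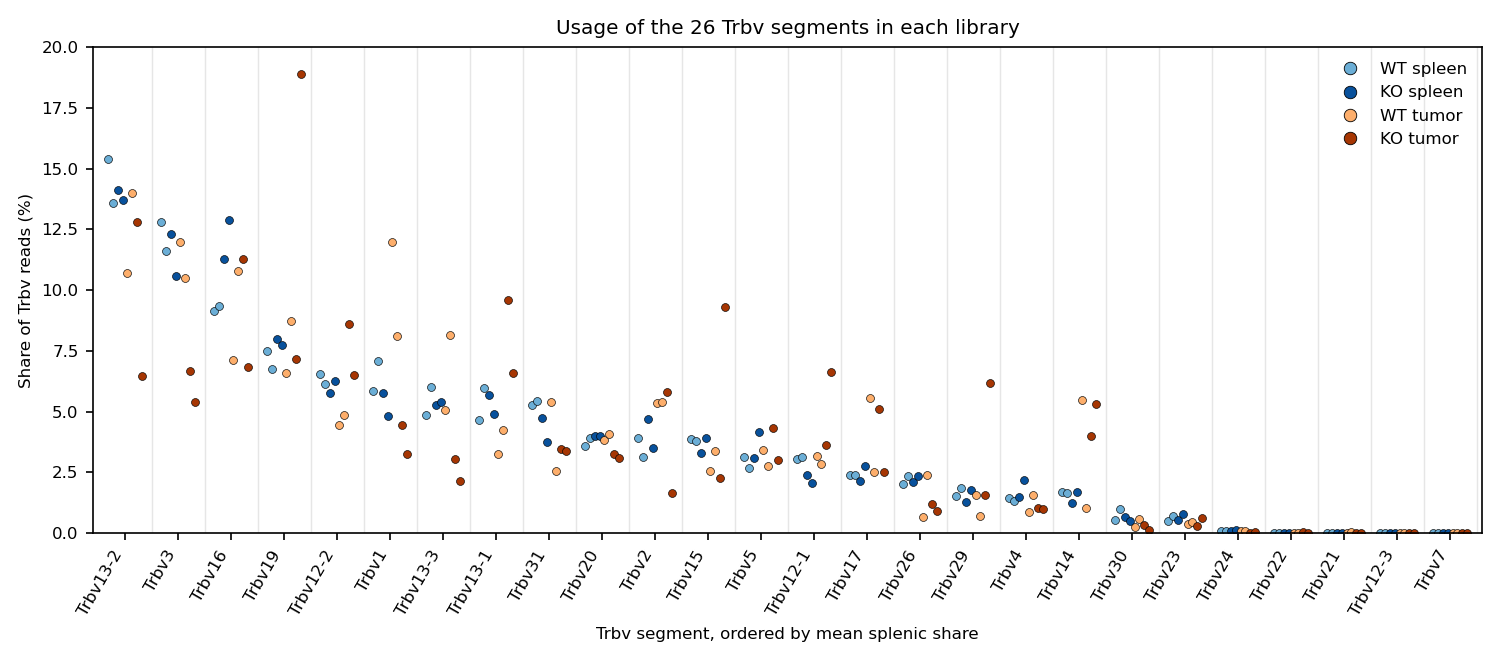
Share of Trbv reads (%) taken by each of the 26 Trbv segments, ordered by mean splenic share, with 1 point per library coloured by group. Splenic points cluster within each segment, while KO tumor points reach 18.9% for Trbv19 and 6.16% for Trbv29.

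Replicate overlap was measured as the sum over segments of the smaller of the 2 shares, which is 100% for identical usage. For Trav the replicates overlapped by 86.0% in KO spleen, 92.0% in WT spleen, 60.3% in KO tumor and 69.1% in WT tumor. For Trbv the overlap was 93.3% in KO spleen, 94.2% in WT spleen, 71.8% in KO tumor and 82.4% in WT tumor. For both chains each tumor pair lay below each splenic pair, with mean differences of 24.3 percentage points for Trav (SD between pairs 5.33) and 16.6 for Trbv (5.31). Without the KO tumor libraries the differences were 19.9 and 11.3.

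Depth differed between libraries, as KO tumor replicate 1 had 2849 Trav reads and splenic libraries had 10983 to 19338. The WT pairs were of like depth for Trav: 15986 and 10983 reads in spleen, with an overlap of 92.0%, and 11013 and 16420 reads in tumor, with an overlap of 69.1%. The KO tumor pair (2849 and 8124 Trav reads) and all tumor libraries for Trbv (6131 to 17429 reads, against 38216 to 60482 in spleen) were not matched to spleen in depth, and the part of depth in their overlap was not tested.

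Overlap was high between all splenic libraries whatever their genotype. Over the 6 pairs of splenic libraries Trav overlapped by 86.0% to 92.0% and Trbv by 91.7% to 94.4%, and over the 6 pairs of tumor libraries by 57.7% to 74.7% and 65.1% to 82.4%. The highest Trav overlap among tumor libraries, 74.7%, was between WT tumor replicate 2 and KO tumor replicate 1, which differ in genotype, and lay above that of either tumor replicate pair. For Trbv the highest was 82.4%, between the WT tumor replicates. Between tissues, the 16 pairs of a splenic and a tumor library overlapped by 59.0% to 81.1% for Trav and 67.7% to 91.9% for Trbv. The 4 of these pairs that share genotype and replicate number had a median of 75.0% for Trav and 84.0% for Trbv, against 74.6% and 82.7% for the other 12.

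Spearman's rho between libraries, across the 110 Trav segments, was 0.95 to 0.97 within spleen and 0.84 to 0.89 within tumor, and across the 26 Trbv segments 0.97 to 0.99 and 0.69 to 0.88. Segments are not independent replicates, so these are descriptions.

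**Figure D4:**
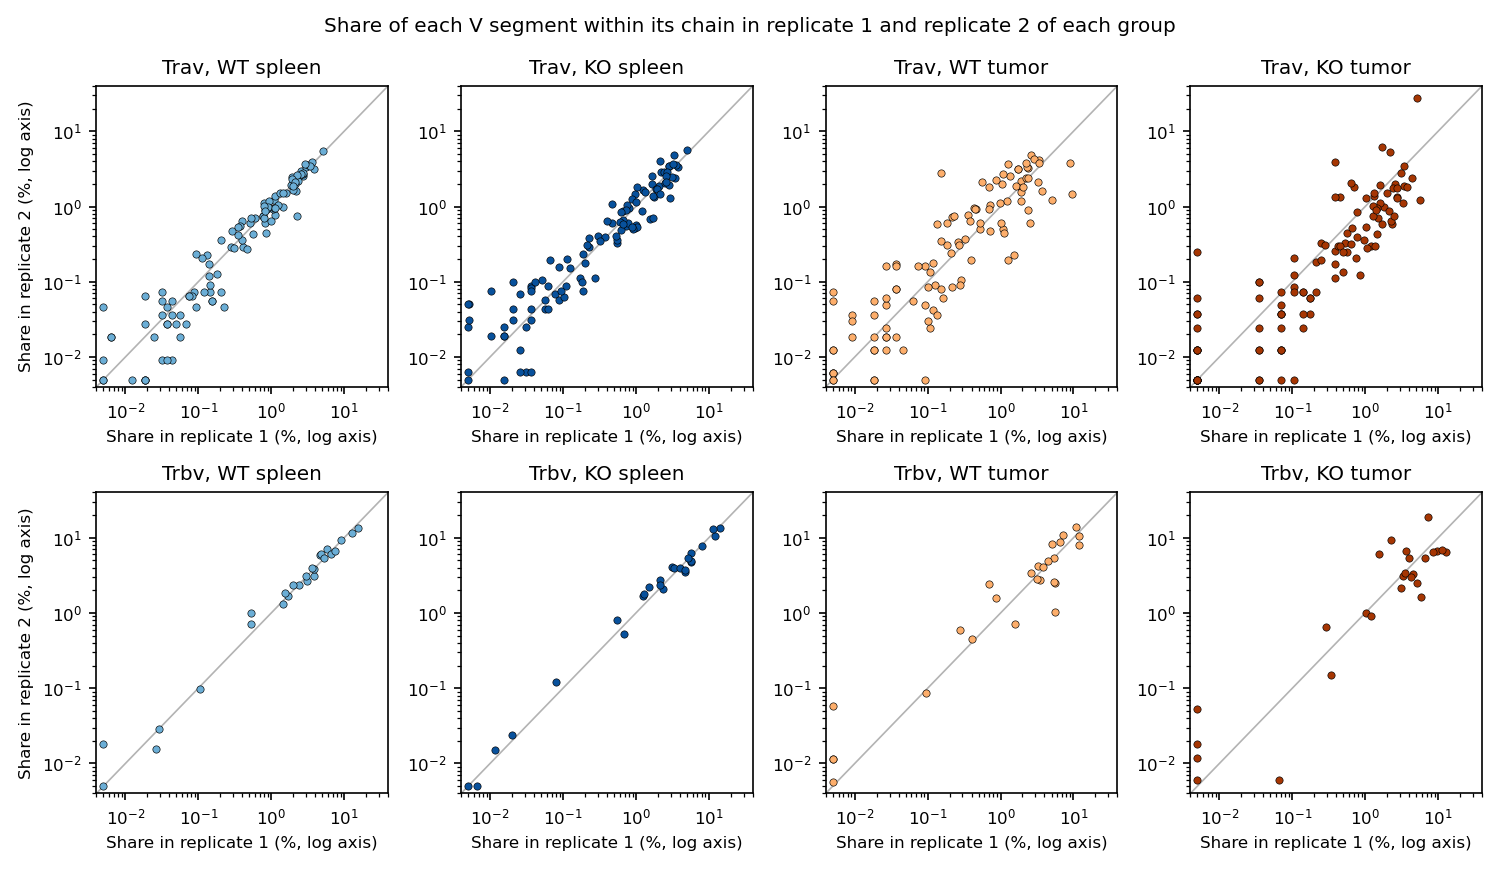
Share (%, log axes) of each Trav segment (top) and Trbv segment (bottom) in replicate 1 against replicate 2 of each group, with the line of equality; shares under 0.005%, zeros included, are drawn at 0.005%. Points above 1% lie close to the line in spleen and scatter more in tumor, where Trav14n-3 lies at 5.12% and 27.5% in KO tumor.

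**Figure D5:**
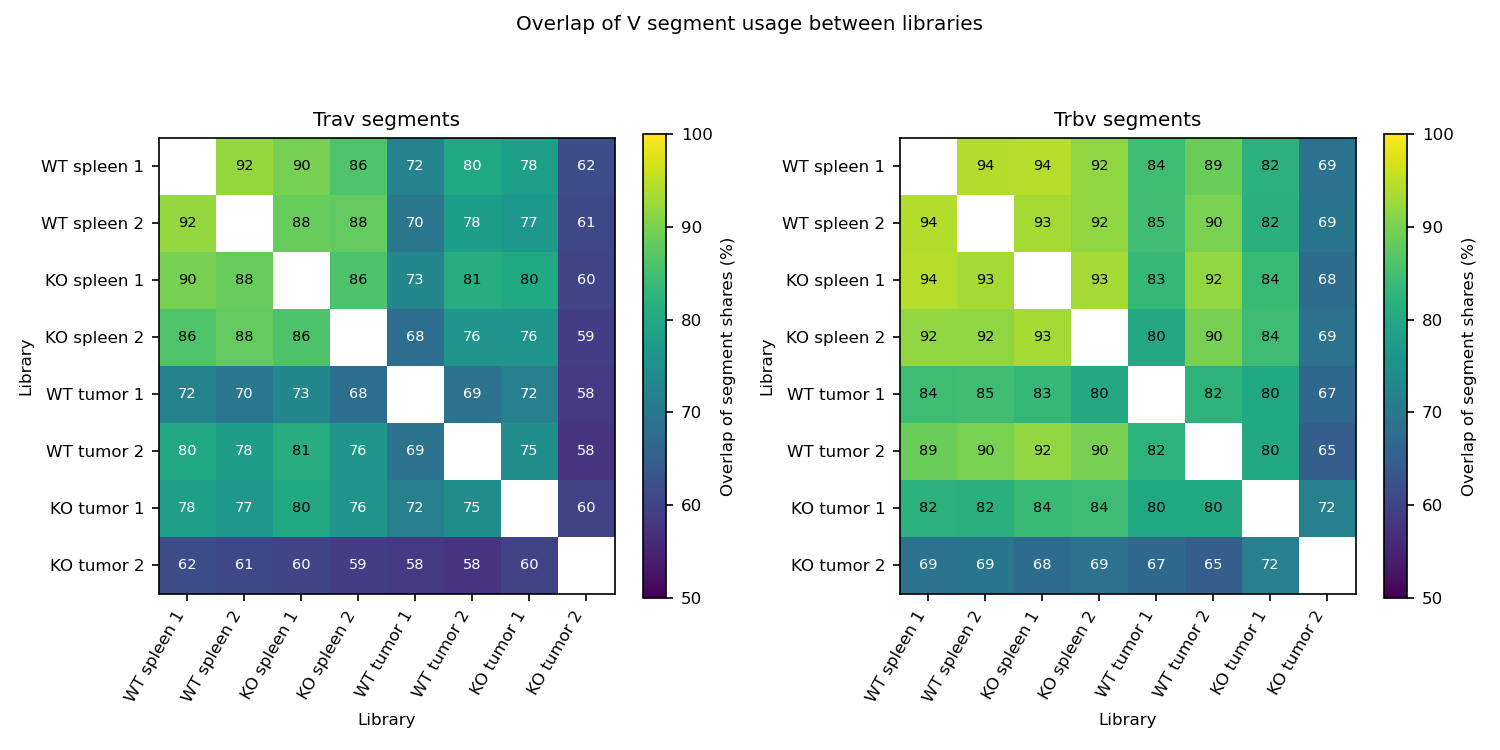
Overlap of Trav and of Trbv segment shares (%) for each pair of the 8 libraries, rounded to whole percents. Pairs of splenic libraries reach 92.0% for Trav and 94.4% for Trbv, and pairs with KO tumor replicate 2 give the lowest values, down to 57.7% and 65.1%.

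Tests of single genes were made with edgeR's quasi-likelihood test at an adjusted p under 0.05 and an absolute log2 fold change over 1. Between KO and WT in tumor, 0 of 107 members tested were called, as were 0% of all 15935 genes. At an unadjusted p under 0.05 there were 45 members, 7 higher and 38 lower in KO, of which 34 were Trav segments, all lower. That was 42.1% of the members, with 35.5% lower, beside 9.87% of all genes, with 3.53% lower. Segments of a chain share the chain's level, so such counts do not number separate changes, here or in the comparisons below. Trac, the constant gene of the alpha chain, was itself 1.24 lower on the log2 scale in KO tumor (adjusted p = 0.608, edgeR). The median log2 difference was -1.70 over 71 Trav segments and -0.62 over 22 Trbv segments, beside 0.04 over all genes. DESeq2 called 25 of 111 members (22.5%), of which 6 were higher and 19 lower, against 4.45% of all genes. Trav segments made up 18 of those 19.

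Between KO and WT in spleen edgeR called 0 of 118 members and 0% of all 16583 genes, with 4 members (3.39%) at an unadjusted p under 0.05 beside 2.95% of all genes. The median log2 difference was -0.11 over 81 Trav and -0.09 over 23 Trbv segments, and DESeq2 called 1 of 120 members (Tcrg-C1) against 0.442% of all genes.

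Between WT tumor and WT spleen edgeR called 1 of 111 members, lower in tumor, against 5.97% of all genes in either direction and 1.87% in that direction. It was Trbv12-2 (chromosome 6), at 75.2 and 85.3 CPM in WT spleen and 20.4 and 28.6 CPM in WT tumor, a log2 difference of -1.71 (SE 0.44, adjusted p = 0.0472, edgeR). Its value in KO was -1.36 (SE 0.44, adjusted p = 0.123), which was not called, and the interaction of 0.35 (adjusted p = 0.922) did not show that the genotypes differed. The WT call was lost with all 8 libraries in the fit (adjusted p = 0.0707, edgeR) and without WT spleen replicate 2 or either WT tumor library (adjusted p = 0.105 to 0.698, edgeR, with the arm of 1 library assumed to vary like the other), where the log2 difference was -1.94 to -1.47. As a share of Trbv reads, Trbv12-2 was at 5.76% to 6.57% in spleen and 4.47% to 8.61% in tumor. All 23 Trbv segments tested had lower CPM in WT tumor than in WT spleen, with a median log2 difference of -1.40, while over 77 Trav segments the median was -0.17. DESeq2 called 12 members, 11 of them lower and 8 of these Trbv, or 9.45% of the 127 tested, against 9.60% of all genes.

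Between KO tumor and KO spleen edgeR called 0 of 116 members, against 1.35% of all genes, with 60 members at an unadjusted p under 0.05, 6 higher and 54 lower in tumor. That was 51.7% of the members beside 31.0% of all genes, with 46.6% and 13.7% lower. The median log2 difference was -1.50 over 78 Trav segments and -1.93 over 22 Trbv segments. DESeq2 called 49 of 132 members (37.1%), of which 43 were lower in tumor, against 19.2% of all genes. The interaction of genotype and tissue was called for 0 of 123 members and 0 of 17870 genes by edgeR, with 32 members (26.0%) and 7.83% of all genes at an unadjusted p under 0.05. DESeq2 was not run on it. Both tissue comparisons pass through the same libraries as the genotype comparisons, so they are not independent of each other.

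Gamma chain genes did not move as a group between tumor and spleen, but several were highest in the KO tumor libraries. These were Tcrg-C2, Trgv2 and, at no more than 43 counts in a library, Tcrg-C3, Tcrg-V7 and Tcrg-V3. The last V segments, Tcrg-V7 and Tcrg-V3, were named after their values were seen. Tcrg-C2, a gamma constant gene (chromosome 13), was at 2.51 and 2.10 CPM in KO spleen, 1.11 and 3.64 CPM in WT spleen, 32.4 and 184 CPM in KO tumor, and 5.85 and 1.38 CPM in WT tumor. Trgv2, the V segment shown above, was at 0.880 and 0.431 CPM in KO spleen, 0.569 and 0.713 CPM in WT spleen, 12.0 and 73.1 CPM in KO tumor, and 2.62 and 0.540 CPM in WT tumor. Both genes were higher in both KO tumor libraries than in any other library. The log2 difference between KO and WT tumor was 4.90 (SE 1.15, adjusted p = 0.277) for Tcrg-C2 and 4.75 (SE 1.21, adjusted p = 0.301) for Trgv2 by edgeR, and neither was called, while DESeq2 gave adjusted p = 1.5e-05 and 8.9e-05. Between KO tumor and KO spleen it was 5.54 (SE 0.96, adjusted p = 0.0590) and 6.00 (SE 1.10, adjusted p = 0.0607). These sizes leaned on KO tumor replicate 2: without it they were 3.14 and 2.90 between KO and WT tumor (adjusted p = 0.193 and 0.242, edgeR), and 3.85 and 4.22 between the KO tissues, with adjusted p = 0.000686 and 0.00307 (edgeR) from a fit in which the KO tumor arm is 1 library and is assumed to vary like the KO spleen pair.

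Of the remaining gamma genes, Tcrg-C1 reached 585 and 668 counts in KO spleen, and the others had at most 245 counts in any library. Between WT tumor and WT spleen the log2 difference was -2.33 for Tcrg-C1 (SE 0.76, adjusted p = 0.110, edgeR; DESeq2 adjusted p = 0.0439) and -3.19 for Tcrg-C4 (SE 1.01, adjusted p = 0.101, edgeR; DESeq2 adjusted p = 0.0225). Between KO tumor and KO spleen it was -1.52 for Tcrg-C1, -0.86 for Tcrg-V4 and -2.62 for Tcrg-V6, and 2.60 for Tcrg-C4, none of them called by edgeR. DESeq2 gave adjusted p = 0.000489 for Tcrg-C4 there, and 0.165, 0.562 and 0.122 for the first 3. Tcrg-C4 was at 0.902, 1.27, 0.868 and 5.88 CPM in KO and WT spleen, 4.03 and 9.16 CPM in KO tumor and 0.467 and 0.270 CPM in WT tumor. Its log2 difference between KO and WT tumor was 4.15 (SE 0.74, adjusted p = 0.213, edgeR, DESeq2 adjusted p = 1.4e-05). Tcrg-C3 had 43 and 40 counts in KO tumor, 0 and 1 in WT tumor, and 7, 4, 1 and 5 in KO and WT spleen. Tcrg-V7 had 17 and 43 counts in KO tumor and at most 3 in any other library. Tcrg-V3 had 11 and 27 counts in KO tumor and at most 6 in any other library. Tcrg-C1 was the only gamma constant gene that was higher in both KO libraries than in both WT libraries in each tissue. In spleen it was at 12.6 and 16.9 against 2.36 and 4.81 CPM, a log2 difference of 2.03 (SE 0.50, adjusted p = 0.878, edgeR, DESeq2 adjusted p = 0.0220). In tumor it was at 1.87 and 8.45 against 0.646 and 0.776 CPM, a log2 difference of 2.85 (SE 0.89, adjusted p = 0.393, edgeR, DESeq2 adjusted p = 0.0314). Complete separation of this kind in tumor held for 17.9% of all genes, and for all 4 Tcrg-C genes and all 4 gamma V segments tested, against 1 of 84 Trav and 0 of 23 Trbv segments. Tcrg-C3 and Tcrg-V7 had at most 7 counts in any library outside KO tumor. They passed the filter on low counts through the KO tumor libraries, so their separation was largely set in advance. Tcrg-V6 separated on 3 and 11 counts in KO tumor against 2 and 2 in WT tumor, at the floor of 3 counts. Tcrg-V4 had 19 and 15 counts in KO tumor against 2 and 0 in WT tumor, where it was under that floor. Tcrg-V3 and Tcrg-V5 were not in the tested set.

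The make-up of the gamma chain reads also differed between the tissues. Trgv2 held 34.5%, 10.1%, 51.4% and 64.5% of gamma V reads in KO and WT spleen and 87.5%, 95.3%, 91.2% and 88.9% in KO and WT tumor. However, WT tumor replicate 2 had only 18 gamma V reads, and the WT spleen libraries had only 37 and 31. In KO spleen Tcrg-V4 led in replicate 1 (49 reads, 41.2%) and Tcrg-V6 in replicate 2 (100 reads, 59.2%). Tcrg-C2 held 15.6%, 10.3%, 25.3% and 25.1% of Tcrg-C reads in KO and WT spleen and 81.7%, 90.6%, 84.0% and 56.2% in KO and WT tumor. Without the KO tumor libraries the tumor shares of both genes were still above every splenic share.

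The level of the delta constant gene did not separate the KO tumor libraries from the rest. Trdc, the delta constant gene, was at 4.32 and 4.89 CPM in KO spleen, 4.61 and 3.57 CPM in WT spleen, 3.87 and 2.65 CPM in KO tumor, and 2.19 and 2.70 CPM in WT tumor, and the log2 difference between KO and WT tumor was 0.41 (SE 0.54, adjusted p = 0.920). Relative to alpha it was highest in KO tumor replicate 1, where Trdc took 1.31% of Trdc and Trac reads together, against 0.162% to 0.390% in the other 7 libraries; Trac was lowest in that library. Trdv1, which led the delta segments in 7 of 8 libraries, was at 2.48 to 4.92 CPM in spleen, 0.222 and 1.31 CPM in KO tumor and 2.33 and 3.24 CPM in WT tumor. In KO tumor replicate 1 Trdv4 led with 17 of 38 delta V reads.

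The order of the 4 tumor libraries by Tcrg-C2 and by Trgv2 was that by Cd8a: KO tumor replicate 2, KO tumor replicate 1, WT tumor replicate 1 and WT tumor replicate 2. The 2 CD8 markers (Cd8a and Cd8b1) summed to 406 and 2220.4 CPM in KO tumor, 148 and 48.2 CPM in WT tumor and 15.0 to 30.7 CPM in spleen, with neither at 0 in any library. The 8 markers listed for gamma delta T cells, which include Tcrg-C1, Tcrg-C2 and Tcrg-C4, summed to 44.4 and 205 CPM in KO tumor, 11.0 and 6.95 CPM in WT tumor and 10.5 to 26.3 CPM in spleen. Of the list's genes outside the gamma chain and Trdc, Sox13 was at 0 in 6 of 8 libraries and at most 0.159 CPM, Blk was at 0.150 to 1.10 CPM, Il17a at 0 to 0.826 CPM and Trdv4 at 0.150 to 0.843 CPM. The part of CD8 T cells or gamma delta T cells in the gamma counts, and in the Trav14n-3 and Trbv19 shares of KO tumor replicate 2, was not tested.

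Trav11 and Trav11d, whose rearrangement to a single joining segment marks invariant natural killer T cells, had at most 5 reads each in any library. Trav11d had 2 to 4 reads in the splenic libraries and 0 in the tumor libraries, where a count of 0 allows up to 3, so a difference was not detectable at this depth. Trav1, used by mucosal-associated invariant T cells, took 0.550% to 1.11% of Trav reads in spleen, 1.30% and 1.39% in KO tumor and 0.354% and 0.761% in WT tumor.

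Partners of the receptor were read from a list of 30 genes for its assembly, recombination, co-receptors and signaling, of which 27 were tested in each comparison. EdgeR called 0 in either genotype comparison and 1 in each tissue comparison, Trat1, which encodes an adaptor that joins the receptor complex. Over all genes it called 0% between genotypes, and 5.97% in WT and 1.35% in KO between tissues. DESeq2 called Cd4, Cd5 and Trat1 lower and Cd8a and Cd8b1 higher in KO than in WT tumor, beside 4.45% of all genes. In KO tumor against KO spleen it called Cd4, Cd5, Trat1 and Ubash3a lower and Cd8a, Cd8b1 and Dntt higher, beside 19.2%. In WT tumor against WT spleen it called Trat1 and Fyn lower and Cd8a higher, beside 9.60%. Between KO and WT spleen it called none of the list. Trat1 fell in WT tumor, from 96.9 and 149 CPM in WT spleen to 27.4 and 39.2 CPM (log2 difference -1.89, SE 0.46, adjusted p = 0.0404, edgeR). It fell in KO tumor from 104 and 103 CPM in KO spleen to 9.01 and 11.3 CPM (log2 difference -3.34, SE 0.23, adjusted p = 0.0332, edgeR). The median log2 difference of the list was -0.05 in WT and -0.78 in KO between tumor and spleen, -0.26 between KO and WT in tumor and 0.08 in spleen. The CD3 chains, which carry the receptor's signal, were present throughout: Cd3e was at 1252 to 1444 CPM in spleen, 315 and 1023 CPM in KO tumor and 927 and 1427 CPM in WT tumor. In KO tumor replicate 1, Cd3e and Trac were both lowest of all libraries. The recombination genes Rag1 and Rag2, active in developing T cells, were at 0 in 7 and 8 of the 8 libraries. Dntt, the other recombination gene listed, was low but present. It was at 0.279 to 0.713 CPM in spleen, 1.71 and 2.92 CPM in KO tumor and 0.359 and 2.06 CPM in WT tumor. Between KO tumor and KO spleen its log2 difference was 2.94 (SE 0.57, adjusted p = 0.0645, edgeR, DESeq2 adjusted p = 0.000866).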

How the data were processed

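For each of 8 libraries the authors deposited a file of raw gene counts, made per the study's methods by rRNA removal, random priming and paired 150-base sequencing, Trimmomatic 0.36, STAR 2.5.2b against GRCm38 and featureCounts (Subread 1.5.2) on uniquely placed reads within exons. Use of strand in counting is not given in the sources used here. The authors' normalized table was not used.

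Each comparison was fitted over all genes of its 4 libraries with edgeR 4.0.16 (quasi-likelihood, TMM, filterByExpr; R 4.3.3), Benjamini-Hochberg adjusted p under 0.05 and absolute log2 fold change over 1, with SE taken as the fold change over the root of F. Scripts were tested on simulated data. CPM are TMM-scaled over the 8 libraries. DESeq2 1.42.0, other scalings, filters and a replicate block were alternatives. Segment shares are reads over all member reads of the chain, and evenness and overlap carry no p-value. Members and lists were chosen with earlier results of these data known. Genes named were all constant genes, the leading segment of each chain and library, the 3 leading splenic Trav and Trbv segments, called members, Trav1, Trav11 and Trav11d. Other segments were named for shares of at least 1% and 3 times the splenic median, or as stated, after values were seen. Gene positions in the count files are those of GENCODE M21. At the depths here, 3 counts correspond to 0.0683 to 0.108 counts per 1000000 reads.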

Additional observations from a re-analysis of the deposited data

Results flagged for a closer look

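Cd8a differed between the genotypes in opposite directions in the tissues: in tumor the KO libraries (217 and 1214 CPM) lay above the WT libraries (71.8 and 9.68 CPM), and in spleen they lay below them (2.96 and 2.33 CPM against 5.21 and 5.95 CPM). The interaction was 5.21 on the log2 scale (SE 1.38, adjusted p = 0.344, edgeR), so the difference did not pass the test. Groups of 2 libraries were not tested for a library that stands apart.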

How the results depend on the processing

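Calls among the receptor genes depended on the processing, and the cause was not tested. Between KO and WT in tumor, edgeR's 0 calls became 25 with DESeq2, 24 without the filter on low counts, 1 with all 8 libraries in the fit and 13 with a replicate block. Between KO and WT in spleen, 0 calls became 1 with DESeq2, 2 without the filter and 1 with the replicate block, and 0 to 4 with each library left out, of which 4 came without WT spleen replicate 1 and 1 without WT spleen replicate 2. Between WT tumor and WT spleen, 1 call became 12 with DESeq2, 8 without the filter, 2 with a mean of at least 50 counts, 0 with all 8 libraries, 7 with the replicate block and 0 with a log2 fold change over 2, and 0 to 7 with each library left out (7 without WT spleen replicate 1, 2 without WT tumor replicate 2, 0 without WT spleen replicate 2). Between KO tumor and KO spleen, 0 calls became 49 with DESeq2, 41 without the filter, 2 with a mean of at least 50 counts and 31 with all 8 libraries, and stayed 0 with the replicate block. Leaving out a library there gave 0 to 82, with 46 without KO tumor replicate 1 and 82 without KO tumor replicate 2. Leaving out 1 library leaves 1 in its arm, which is assumed to vary like the other group.

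The labels do not say what replicate numbers mark, and same-numbered samples correlated in their deviations by 0.234 (KO and WT tumor), 0.155 (KO and WT spleen), -0.024 (WT tissues) and -0.22 (KO tissues), so the pairing is not established. Crossing the numbers between KO tumor and KO spleen, an alternative chosen after seeing the data, gave 42 calls.

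The excess of splenic over tumor evenness and overlap kept its direction under all alternatives run. For the Trbv effective number this direction carries no weight, as the difference of 0.363 was below the SD between replicates of 0.422. By the inverse Simpson index, another measure of evenness, Trbv was at 12.9 to 13.9 in spleen and 12.3 to 13.9 in tumor. Summing segments by subgroup brought the Trav effective number difference from 11.6 to 1.19 and the Trav overlap difference from 24.3 to 18.7 percentage points. The Morisita-Horn index gave 36.8 for Trav, and removal of the largest segment of each library gave 23.1 for Trbv overlap. With each library left out, the differences were 6.51 to 14.6 and 0.221 to 0.48 (Trav and Trbv effective number), and 19.9 to 28.7 and 11.3 to 21.9 (Trav and Trbv overlap). Trbc1 and Trbc2 between KO and WT tumor ranged over -1.37 to 0.21 and -1.49 to 0.29 on the log2 scale, positive without KO tumor replicate 1 and lowest without KO tumor replicate 2. Depth limits the delta chain (38 to 294 V reads) and the gamma chain in WT tumor (80 and 18) and WT spleen (37 and 31).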
